A study of Mus musculus with 11 samples.

Results

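The comparison set 3 RNA-seq libraries of aged MuSCs treated with PGE2 against 2 libraries of untreated aged MuSCs, 5 of the 11 libraries in the count table, chosen by age and treatment in the sample labels. MuSCs are the stem cells of skeletal muscle, also called satellite cells. All 5 libraries came from C57BL/6 mice aged 24 months. Cells negative for CD45, Sca1, CD31 and CD11b and positive for Integrin α7 and CD34 were sorted, kept on hydrogels for 24 h, and 5000 to 10000 of them went into each library. The treated cells received 10 ng/ml PGE2 for 24 h, and the labels name no vehicle for the untreated cells. No label ties a replicate to an animal of its own, so the p-values below measure the spread between these samples, which may be technical in part. Total estimated counts were 3797811 and 1276873 in untreated replicates 1 and 2, and 3216801, 1760139 and 2437713 in PGE2 replicates 1, 2 and 3. A floor of 3 counts corresponded to 0.790 and 2.35 CPM (counts relative to library size) in the untreated libraries and to 0.933, 1.70 and 1.23 CPM in the PGE2 libraries on total counts, while all CPM values of genes below use effective library sizes. Values of single libraries are given below in this order throughout.

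PGE2 is a lipid made from arachidonic acid by cyclooxygenases and PGE synthases, and it signals through the G protein-coupled receptors EP1 to EP4, encoded by Ptger1 to Ptger4. EP2 and EP4 act through the stimulatory G protein, adenylyl cyclase and cAMP, which activates protein kinase A and the transcription factor CREB. CREB switches on genes that feed back on the pathway, such as cAMP phosphodiesterases, and in muscle PGE2 is known as a signal that reaches MuSCs after injury.

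The identity of the cells was checked first. Of 12 satellite cell markers, 12 were read in at least 1 library and 10 had 10 or more counts in every library. Their summed level was 1801 and 1826 CPM untreated and 2378, 1934 and 2341 CPM with PGE2, higher in each PGE2 library than in both untreated libraries (exact two-sided permutation p = 0.2), and the most abundant marker was Sdc4, a heparan sulfate proteoglycan of satellite cells. Pax7, the transcription factor that marks MuSCs, was at 233 and 206 CPM untreated against 266, 289 and 228 CPM with PGE2, and these ranges overlapped. Myf5, a myogenic factor of committed satellite cells, was at 35.1 and 69.2 CPM untreated against 70.9, 80.2 and 37.8 CPM with PGE2, and Myod1, the factor of activated cells, at 340.0 and 224 CPM untreated against 469, 311 and 336 CPM with PGE2. Neither separated the groups. Myog, which turns on with differentiation, was read with 0 and 0 counts untreated against 1, 0 and 0 counts with PGE2, below the floor in all 5.

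Markers of cells that the sort should remove were low. The 12 markers of fibroadipogenic progenitors, the mesenchymal cells of muscle, summed to 98.2 and 54.5 CPM untreated and 119, 124 and 123 CPM with PGE2, with 9 of 12 read and Col3a1 the most abundant. The sum was higher in every PGE2 library (exact two-sided permutation p = 0.1, the smallest that 2 libraries against 3 allow). Col3a1 alone was at 72.3 and 46.7 CPM untreated against 92.6, 109 and 90.9 CPM with PGE2, while Pdgfra, the defining receptor of these cells, was read with 0 and 1 counts untreated against 1, 0 and 2 counts with PGE2, Ly6a, which encodes Sca1 and was used to sort such cells out, with 0 and 0 counts untreated against 39, 0 and 0 counts with PGE2, all in PGE2 replicate 1, and Col1a1, Lum and Mfap5 were at 0 in all 5. The 12 endothelial markers summed to 12.2 and 28.8 CPM untreated and 31.3, 7.97 and 19.1 CPM with PGE2, with 9 of 12 read and Fabp4, Cldn5 and Esam at 0. For pericytes and smooth muscle the 10 markers summed to 74.00 and 72.4 CPM untreated and 92.02, 60.3 and 119 CPM with PGE2, with Acta2 the highest on average, 7 of 10 read and Abcc9, Cnn1 and Higd1b at 0. For macrophages and monocytes the sum over 12 markers was 5.01 and 23.3 CPM untreated and 7.13, 2.28 and 5.68 CPM with PGE2, with Itgam the highest on average, 7 read and Ptprc, Adgre1, C1qa, C1qc and Fcgr1 at 0. The 8 neutrophil markers summed to 0.278 and 1.56 CPM untreated and 0, 0 and 1.22 CPM with PGE2, with Ltf the highest on average, S100a8, S100a9, Ly6g, Retnlg and Camp at 0 and 3 of 8 read. The 12 lymphocyte markers summed to 0 and 12.4 CPM untreated and 1.24, 0.569 and 0.812 CPM with PGE2, with 6 of 12 read and Cd4, Cd8a, Cd79a, Cd79b, Ms4a1 and Nkg7 at 0. Tenocyte markers, 3 of 6 read and led by Scx, summed to 41.2 and 30.3 CPM untreated and 23.2, 23.3 and 28.8 CPM with PGE2, and Tnmd, Thbs4 and Comp were at 0. The 8 Schwann cell markers, 6 of them read, summed to 1101 and 509.6 CPM untreated and 443, 462 and 457 CPM with PGE2, nearly all of it Ncam1, an adhesion molecule that myogenic cells also make, while S100b was at 0. The sum was lower in every PGE2 library (exact two-sided permutation p = 0.1). Of 12 markers of mature myofibers 9 were read, summing to 19.8 and 17.1 CPM untreated and 14.9, 32.4 and 6.50 CPM with PGE2 with Actn3 the highest on average and Myh4, Ckm and Ckmt2 at 0. Of 6 erythroid markers 1, Hba-a1, was read, at 0 and 1.56 CPM untreated and 0, 0 and 0 CPM with PGE2, and Hba-a2, Hbb-bs, Hbb-bt and Alas2 were at 0. In bulk samples such as these, fewer cells of a type and less RNA per cell cannot be told apart.

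**Figure D1:**
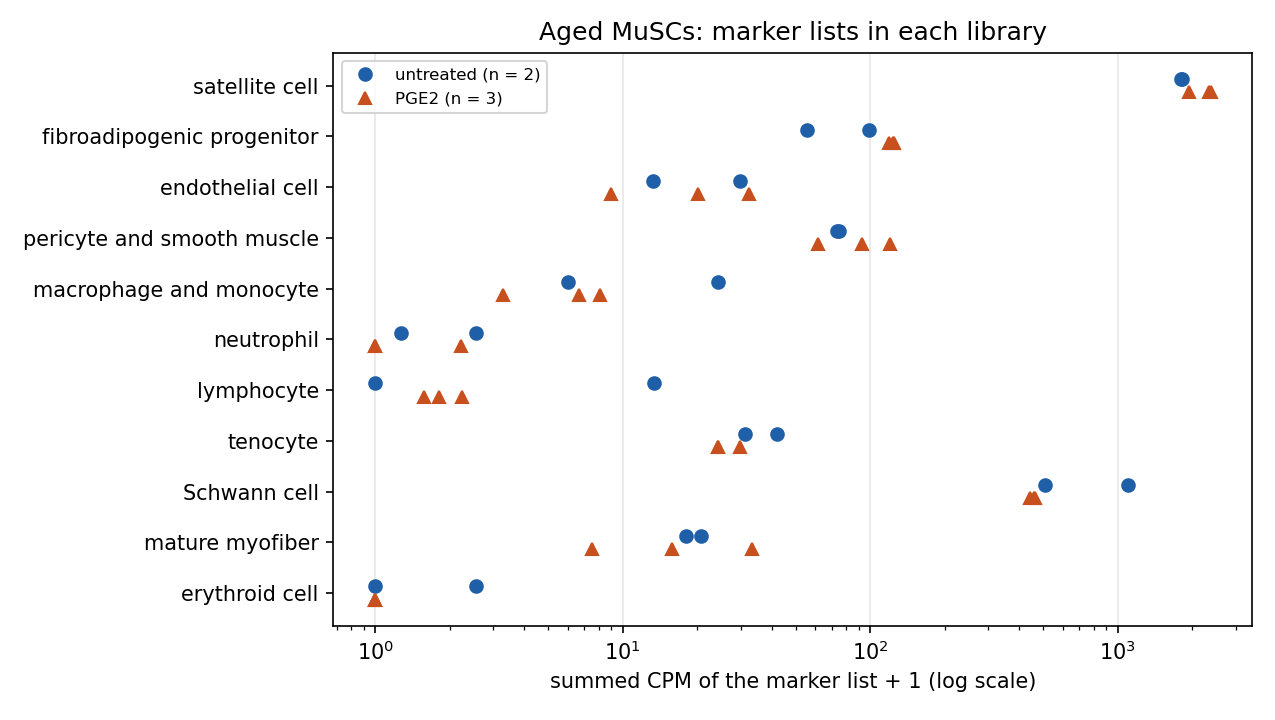
Summed CPM of the marker list of each cell type in each library of aged MuSCs, plotted as CPM + 1 on a log scale, with circles for the 2 untreated and triangles for the 3 PGE2 libraries. The satellite cell list lies between 1801 and 2378 CPM in all libraries, and the list of fibroadipogenic progenitors reaches at most 124 CPM. The Schwann cell list, nearly all of it Ncam1, reaches 1101 CPM in untreated replicate 1.

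No single gene passed the test in aged MuSCs, although some lists of genes, chosen with earlier results of these data known, leaned to one side. Of 10280 genes that passed the low-count filter, 0 were higher and 0 were lower with PGE2 (0% in each direction) at an adjusted p under 0.05 in edgeR's quasi-likelihood test (Benjamini-Hochberg). At an unadjusted p under 0.05 there were 269 genes higher (2.62% of the genes tested) and 227 lower (2.21%). DESeq2 called 10 genes higher (0.0973%) and 3 lower (0.0292%) at an adjusted p under 0.05. The smallest adjusted p in edgeR was 0.128, shared by Odc1 and Mmp14, and the biological coefficient of variation within a group was 0.507. The 3 PGE2 libraries all lay above both untreated libraries for 1060 genes (10.3%) and all below them for 1001 (9.74%). The untreated libraries weighed on the counts: without aged replicate 1 edgeR called 7 genes higher and 6 lower, and without aged replicate 2 it called 10 higher and 13 lower, where the lone untreated library is assumed to vary like the PGE2 libraries. With any one of the PGE2 libraries left out, it called 0 in each direction. Reads on olfactory receptor genes, which MuSCs are not known to use, differed between the untreated libraries more than between the treated ones (22.6 and 729 CPM untreated, 152, 161 and 309.7 CPM with PGE2), and mitochondrially encoded genes took 7.33% and 7.29% of counts untreated and 5.44%, 10.1% and 6.16% with PGE2. The paper lists its young and aged wild-type mice as male. Y-linked genes had 1 and 81 counts untreated against 0, 0 and 137 counts with PGE2, and Xist was at 2614 and 843 CPM untreated against 2031, 2007 and 1155 CPM with PGE2, so that both differed within each group. Untreated replicate 1 and PGE2 replicates 1 and 2, with 1, 0 and 0 Y-linked counts and high Xist, did not read as male. The part of these differences in the results was not tested beyond a covariate for olfactory receptor reads and one for Y-linked reads, each of which gave 3 genes higher and 0 lower.

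Since no gene passed in edgeR, the genes named below are described by their values, and SE stands for standard error. The 27 gene lists were read through their medians, beside a median log2 fold change of 0.00 over all 10280 genes. Members and lists were chosen with earlier results of these data known, so list medians and counts describe the data and test nothing. The lists of cAMP and CREB target genes (0.42) and of matrix proteases and their inhibitors (0.41) had the highest medians. The interferon response (-0.98) and the immediate early genes (-0.62) had the lowest. For 11 of the 27 lists the median kept its sign in all 15 alternative fits, and these 4 lists were among them, but the order of the lists changed between fits. The alternatives reuse the same aged libraries, and several, such as the other scalings, hardly move the medians. A kept sign is therefore no independent support.

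**Figure D2:**
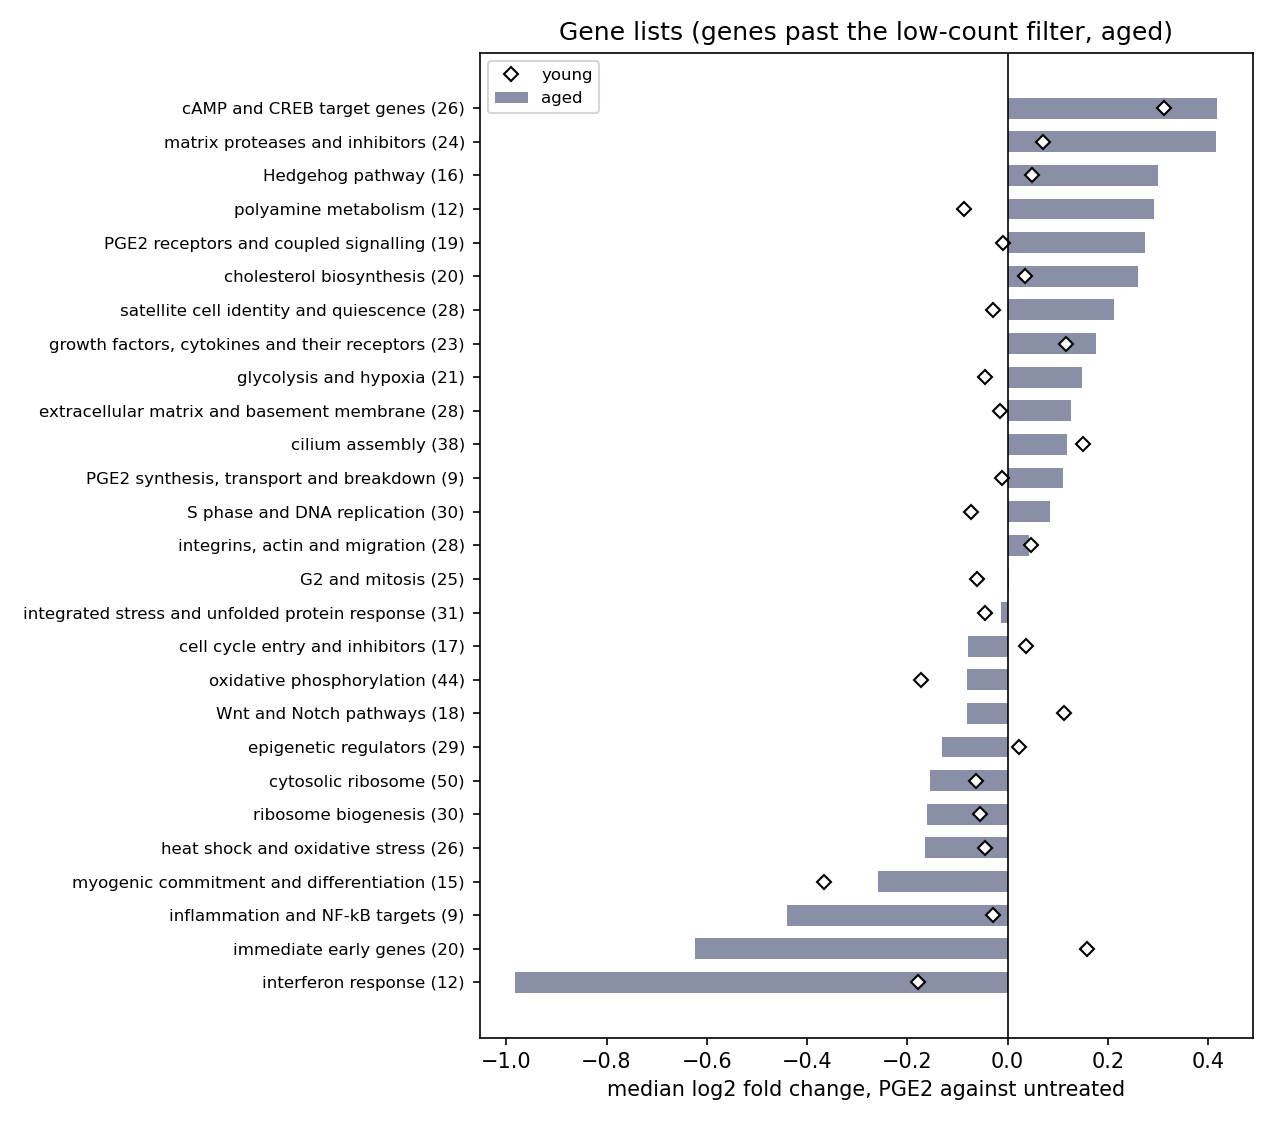
Median log2 fold change of PGE2 against untreated MuSCs for each of the 27 gene lists, as bars for aged and diamonds for young MuSCs, with the number of genes past the low-count filter in aged MuSCs in brackets. In aged MuSCs the medians run from -0.98 for the interferon response to 0.42 for cAMP and CREB target genes.

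The receptors came first in the signaling chain. Ptger4, which encodes EP4, was the most highly read receptor gene: it had 71 and 12 counts untreated against 97, 99 and 45 counts with PGE2, or 19.8 and 9.34 CPM untreated against 30.1, 56.3 and 18.3 CPM with PGE2. PGE2 replicates 1 and 2 were above both untreated libraries for Ptger4, PGE2 replicate 3 lay just under untreated replicate 1, and the log2 fold change was 1.22 (SE 0.65). It ran from 0.71 to 1.89 over the alternatives. Ptger1, encoding EP1, had 4 and 9 counts untreated against 7, 2 and 69 counts with PGE2, most of them in PGE2 replicate 3. The strand of the reads is not given in the sources used here, so reads from the opposite strand may be counted for Ptger1 and for Ptger4, whose exons overlap those of Ttc33 on the other strand. Exons of Fn1, Gins2, Mcm7, Cdc20, Dele1 and other named genes also overlap a gene on the other strand, and not each is marked below. Ptger2, encoding EP2, had 0 and 0 counts untreated against 0, 2 and 0 counts with PGE2, and Ptger3, encoding EP3, was at 0 in all 5, so both were under the floor in every library. Per kilobase of exon, and over the 5 libraries, Ptger4 averaged 4.02 CPM and Ptger1 1.44 CPM.

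Downstream of the receptors, the adenylyl cyclase gene Adcy3 was at 0.835 and 4.67 CPM untreated against 31.6, 11.95 and 39.8 CPM with PGE2, a log2 fold change of 3.52 (SE 0.98). The groups did not overlap for Adcy3, but its exons overlap those of Cenpo on the other strand. Gnas, encoding the stimulatory G protein subunit, was at 366 and 705 CPM untreated against 870.3, 597 and 853 CPM with PGE2, and the groups overlapped. Prkar2a, a regulatory subunit of protein kinase A, was at 209 and 163 CPM untreated against 331, 245 and 261 CPM with PGE2, higher in each PGE2 library. Of the 23 genes listed for receptors and coupled signaling 19 passed the filter, 1 of them higher and 0 lower at an unadjusted p under 0.05 (2.62% and 2.21% of all genes). That 1 was Adcy3, with 3 and 6 counts untreated against 102, 21 and 98 counts with PGE2. It passed the filter mainly through the PGE2 libraries, so nothing is concluded from its place in the count. The median log2 fold change of the list was 0.27, but 0.52 without untreated replicate 2 and 0.09 with the replicate block.

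Genes of PGE2 synthesis were also read. Ptgs1, which encodes the constitutive cyclooxygenase, had 101 and 3 counts untreated against 175, 70 and 177 counts with PGE2, or 28.1 and 2.33 CPM untreated against 54.2, 39.8 and 71.9 CPM with PGE2, and each PGE2 library was above both untreated ones. Its log2 fold change was 1.77 (SE 0.70), and untreated replicate 2, with 3 counts, set much of it: the value was 0.97 without that library and 4.54 without untreated replicate 1. Its adjusted p ran from 0.0483 to 1 over the alternatives in edgeR's quasi-likelihood test (Benjamini-Hochberg). Ptgs2, the inducible cyclooxygenase, had 0 and 0 counts untreated against 24, 8 and 1 counts with PGE2. It was read only with PGE2, although PGE2 replicate 3 was under the floor. The PGE synthase Ptges had 0 and 0 counts untreated against 1, 1 and 0 counts with PGE2, Ptges2 20 and 24 counts untreated against 30, 14 and 40 counts with PGE2, and Ptges3, the most highly read of the synthases, 159 and 295 CPM untreated against 288, 249.3 and 260.3 CPM with PGE2. The groups overlapped for both Ptges2 and Ptges3. Slco2a1, the prostaglandin carrier, was at 38.9 and 5.45 CPM untreated against 24.8, 43.8 and 34.1 CPM with PGE2, with 7 counts in untreated replicate 2, and Cbr1, which reduces PGE2 to another prostaglandin, at 27.5 and 4.67 CPM untreated against 8.06, 6.26 and 6.50 CPM with PGE2. Of the 12 genes listed for PGE2 synthesis, transport and breakdown 9 passed the filter, 2 of them higher and 0 lower at an unadjusted p under 0.05 (2.62% and 2.21% of all genes), with a median log2 fold change of 0.11. Those 2 were Ptgs1 and Ptgs2. With 0 counts in both untreated libraries, Ptgs2 passed the filter only through the PGE2 libraries, so nothing is concluded from its place in the count. The median of the list was 0.65 without untreated replicate 1 and -0.04 with at least 10 counts required in every library.

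Some of the genes that cAMP and CREB are known to switch on stood higher in the treated cells, among them Nr4a2, Pde4b, Akap12 and Sik1. Nr4a2 (ENSMUSG00000026826, chromosome 2 from 57106830 to 57124003 of mm10) encodes an orphan nuclear receptor and is a classical CREB target. It had 30 and 37 counts untreated against 308, 172 and 162 counts with PGE2, or 8.35 and 28.8 CPM untreated against 95.4, 97.9 and 65.8 CPM with PGE2. Every PGE2 library held more Nr4a2 than both untreated libraries, which themselves differed. The group means were 18.6 ± 14.5 CPM untreated (SD, n = 2) and 86.4 ± 17.9 CPM with PGE2 (SD, n = 3), a log2 fold change of 2.29 (SE 0.55), with an adjusted p of 0.701 in edgeR's quasi-likelihood test (Benjamini-Hochberg) and 0.0323 in DESeq2 (Benjamini-Hochberg). The log2 fold change of Nr4a2 was 1.59 without untreated replicate 1 and 3.35 without untreated replicate 2. Pde4b (ENSMUSG00000028525, chromosome 4 from 102087543 to 102607259) encodes a phosphodiesterase that breaks down cAMP. It was at 115 and 69.2 CPM untreated against 284, 237 and 168 CPM with PGE2, again with no overlap, and its log2 fold change was 1.30 (SE 0.35) with an adjusted p of 0.975 in the same edgeR test. Sik1, a kinase induced by CREB that holds back the CREB coactivators, was at 41.7 and 23.3 CPM untreated against 73.1, 106 and 61.7 CPM with PGE2. Akap12, a scaffold that anchors protein kinase A, was at 22.5 and 36.6 CPM untreated against 64.8, 95.04 and 62.5 CPM with PGE2. Both separated the groups, with log2 fold changes of 1.28 (SE 0.45) for Sik1 and 1.34 (SE 0.46) for Akap12.

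Of the 30 genes listed as cAMP and CREB targets 26 passed the filter, and 20 had a positive and 6 a negative log2 fold change. At an adjusted p under 0.05 in edgeR's quasi-likelihood test (Benjamini-Hochberg) 0 passed. At an unadjusted p under 0.05, 4 were higher and 0 lower (2.62% and 2.21% of all genes), and 8 of the 26 had all PGE2 libraries above both untreated libraries, where 10.3% of all genes did. Pde4d, a second cAMP phosphodiesterase, was at 29.8 and 22.6 CPM untreated against 64.4, 42.1 and 36.5 CPM with PGE2, and Nr4a1, a relative of Nr4a2, had 6 and 0 counts untreated against 7, 20 and 11 counts with PGE2. Crem, Dusp1 and Areg, also known CREB targets, had log2 fold changes of 0.11, 0.18 and -0.08, near that of all genes. The median of the list was between 0.37 and 0.61 over the 15 alternatives.

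Because CREB binds the palindrome TGACGTCA or the shorter TGACG, the promoters of the genes higher with PGE2 were read for these letters in the 250 bases before the start. RefSeq sequences of GRCm38.p6 were at hand for 9 of the 12 genes named as higher. TGACGTCA was in 0 of the 9, and TGACG on either strand (written CGTCA where it lies on the other) was in 4, Odc1, Vegfa, Nr4a2 and Pde4b. Over all 32851 promoters of that length, 1.55% held TGACGTCA and 17.8% held TGACG, which is part of the longer motif. Over the 7961 genes tested here that have such a sequence, 3.28% held TGACGTCA and 32.5% held TGACG in at least 1 promoter. Of the 12 genes named as lower, 7 had a sequence, and 0 of them held TGACG. Of the cAMP and CREB target list 21 had a sequence, 2 of them (Dusp1 and Areg) with TGACGTCA and 13 with TGACG. Below are the promoters of Odc1, Nr4a2 and Pde4b, read 5′ to 3′ on the strand of the gene, with the short sites in capitals. The Odc1 stretch is chr12:17544623-17544823 on the + strand, the Nr4a2 stretch chr2:57124004-57124253 on the - strand, and the Pde4b stretch chr4:102421305-102421547 on the + strand, all printed only up to 30 bases past an annotated exon start.
Odc1: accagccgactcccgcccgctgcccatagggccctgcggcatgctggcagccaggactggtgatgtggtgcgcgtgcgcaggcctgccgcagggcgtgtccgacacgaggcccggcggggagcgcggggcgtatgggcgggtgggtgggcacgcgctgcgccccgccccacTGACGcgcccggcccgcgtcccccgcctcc
Nr4a2: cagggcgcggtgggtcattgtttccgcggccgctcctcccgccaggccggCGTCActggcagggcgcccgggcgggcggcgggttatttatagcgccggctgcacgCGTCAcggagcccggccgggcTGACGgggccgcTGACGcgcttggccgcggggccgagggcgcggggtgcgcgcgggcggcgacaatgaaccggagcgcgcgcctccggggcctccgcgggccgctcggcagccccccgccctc
Pde4b: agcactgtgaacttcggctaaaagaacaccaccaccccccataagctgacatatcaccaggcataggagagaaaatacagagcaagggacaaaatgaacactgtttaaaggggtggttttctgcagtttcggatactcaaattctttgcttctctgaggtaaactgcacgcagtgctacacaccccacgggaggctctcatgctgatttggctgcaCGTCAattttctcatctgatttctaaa
The Nr4a2 promoter held 4 short sites between 200 and 111 bases before the start. Odc1 held 1, at 79 bases before the RefSeq start, which itself lies 79 bases into the gene as annotated in GENCODE M21, so that the site begins at the first base of the annotated gene and lies in its first exon. Pde4b held 1, at 34 bases before a start that lies 334012 bases into the gene, at the start of a shorter RefSeq transcript. The window of Vegfa with the short site did not meet the limit on exon bases and is not shown. A match of letters is a description and does not show that CREB binds there.

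**Figure D3:**
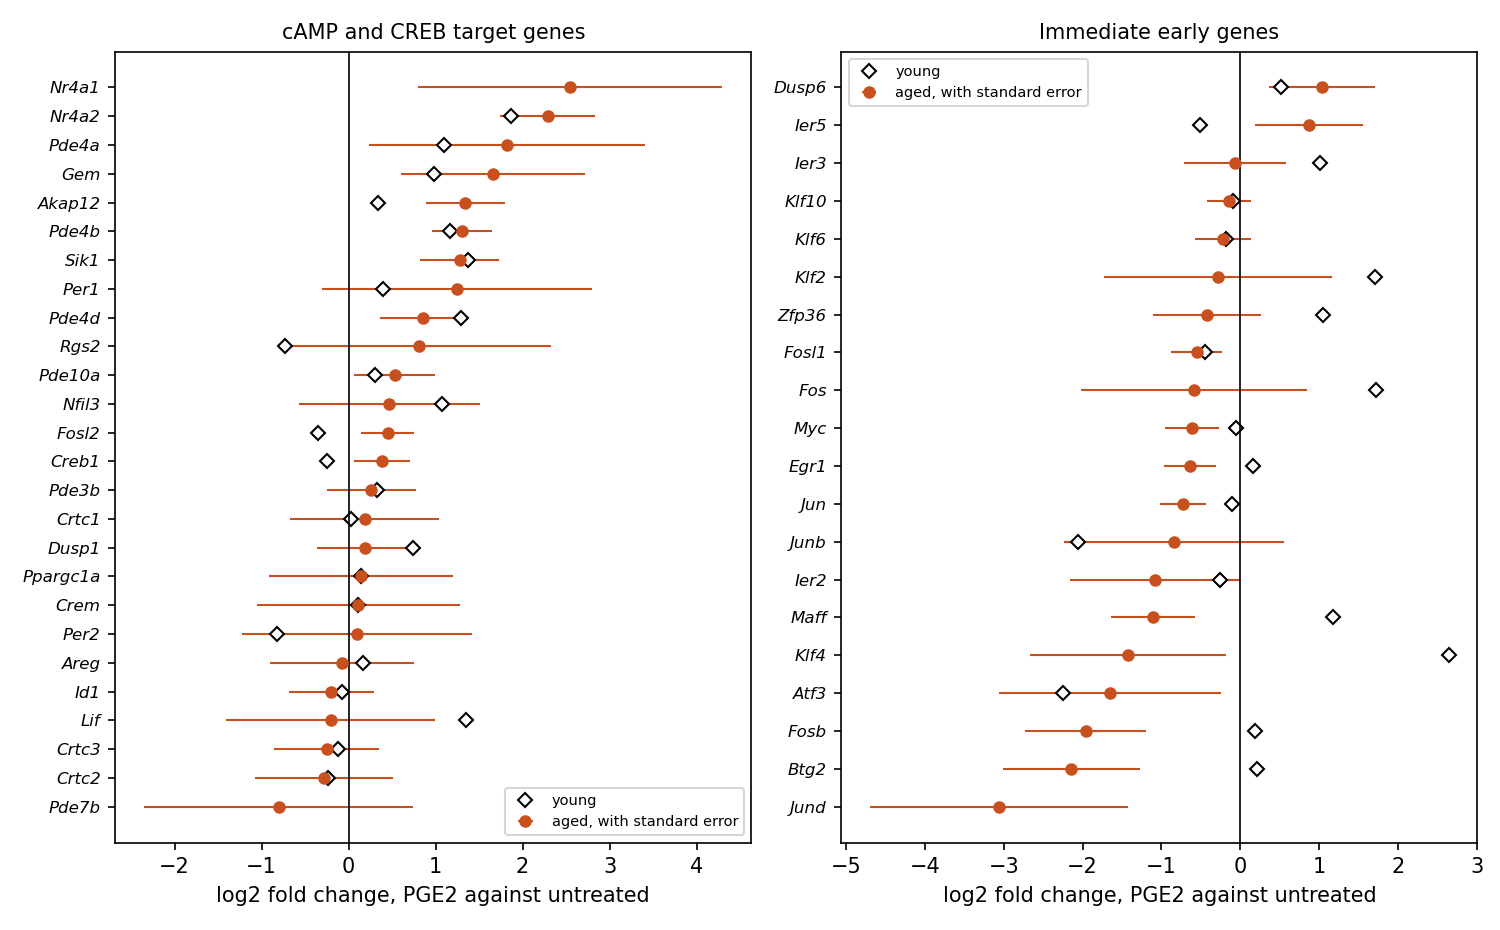
Log2 fold change of PGE2 against untreated aged MuSCs for each cAMP and CREB target gene and each immediate early gene past the filter, as filled points with standard errors, with diamonds for young MuSCs where the gene was tested there. Nr4a2, Akap12, Pde4b and Sik1 lie between 1.28 and 2.29, while 18 of the 20 immediate early genes lie below 0.

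Immediate early genes, which are switched on within minutes by growth factors and by the handling of cells, mostly had negative log2 fold changes. Of 23 listed genes 20 passed the filter, 2 with a positive and 18 with a negative log2 fold change, and at an unadjusted p under 0.05, 0 were higher and 3 were lower (2.62% and 2.21% of all genes). In 5 of the 20 all PGE2 libraries lay below both untreated libraries and in 2 above, where 9.74% and 10.3% of all genes did. Jun, a subunit of the transcription factor AP-1, was at 195 and 212 CPM untreated against 111, 129 and 129.5 CPM with PGE2, with no overlap and a log2 fold change of -0.73 (SE 0.29). Fosb, another AP-1 subunit, was at 12.2 and 75.5 CPM untreated against 5.58, 8.54 and 19.1 CPM with PGE2. PGE2 replicate 3 reached above untreated replicate 1 for Fosb. Btg2, an antiproliferative gene, had 45 and 45 counts untreated against 23, 5 and 14 counts with PGE2, and Maff, a small Maf factor, was at 33.9 and 53.7 CPM untreated against 15.5, 20.5 and 24.8 CPM with PGE2, both lower in all treated libraries. Fos itself had 0 and 36 counts untreated against 5, 6 and 54 counts with PGE2, and its groups overlapped. The median of this list was -0.96 without untreated replicate 1 and -0.14 without untreated replicate 2. It was -0.19 with the Y-linked covariate and -0.39 with the olfactory receptor covariate, so its size changed with untreated replicate 2 and with both covariates.

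The gene nearest to the threshold was Odc1 (ENSMUSG00000011179, chromosome 12 from 17544794 to 17551505 of mm10), which encodes ornithine decarboxylase, the rate-limiting enzyme of polyamine synthesis. It had 6551 and 3037 counts untreated against 21496, 12049 and 11206 counts with PGE2, or 1823 and 2363 CPM untreated against 6659.9, 6857 and 4549.7 CPM with PGE2. The lowest of the 3 PGE2 libraries was well above the higher untreated library for Odc1. The means were 2093 ± 382 CPM untreated (SD, n = 2) and 6022 ± 1279 CPM with PGE2 (SD, n = 3), with a log2 fold change of 1.53 (SE 0.25), an adjusted p of 0.128 in edgeR's quasi-likelihood test (Benjamini-Hochberg) and of 3.49e-06 in DESeq2 (Benjamini-Hochberg). Smox, which encodes spermine oxidase, was at 16.1 and 28.01 CPM untreated against 57.6, 53.5 and 36.9 CPM with PGE2, and Oaz2, an antizyme that takes ornithine decarboxylase to the proteasome, at 9.46 and 17.9 CPM untreated against 39.7, 39.8 and 23.5 CPM with PGE2. Both were higher in each PGE2 library. Amd2, a copy of S-adenosylmethionine decarboxylase whose reads can be split with Amd1, was at 45.9 and 75.5 CPM untreated against 109, 67.7 and 171 CPM with PGE2, with overlap. Amd1 had a log2 fold change of -0.07, and Srm, the spermidine synthase, 0.42. Of 15 listed genes of polyamine metabolism 12 passed the filter, 4 of them higher and 0 lower at an unadjusted p under 0.05 (2.62% and 2.21% of all genes), and the median log2 fold change was 0.29. The median was 0.90 without untreated replicate 2 and 0.16 without PGE2 replicate 3.

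Some proteases that remodel the matrix around the cell, and some of their inhibitors, were higher with PGE2, while the summed level of the list overlapped between the groups (2669 and 2091 CPM untreated and 2644, 2569.6 and 2723 CPM with PGE2). Mmp14 (ENSMUSG00000000957, chromosome 14 from 54431612 to 54445364) encodes the membrane-bound metalloproteinase that cleaves collagen and activates other proteases at the cell surface. It had 18 and 3 counts untreated against 301, 80 and 105 counts with PGE2, or 5.01 and 2.33 CPM untreated against 93.3, 45.5 and 42.6 CPM with PGE2. Mmp14 was at the floor in untreated replicate 2, above it in untreated replicate 1, and higher than both in each PGE2 library. The log2 fold change was 3.92 (SE 0.66), with an adjusted p of 0.128 in edgeR's quasi-likelihood test (Benjamini-Hochberg) and 3.14e-05 in DESeq2 (Benjamini-Hochberg). Reck and Timp3 encode inhibitors of such metalloproteinases. Reck had 4 and 2 counts untreated against 16, 58 and 49 counts with PGE2, and Timp3 had 3 and 0 counts untreated against 34, 8 and 37 counts with PGE2, with exons that overlap Syn3 on the other strand. Both were near the floor without treatment, so their log2 fold changes of 3.84 (SE 1.16) and 4.14 (SE 1.57) rest on few counts. Ctsl, a lysosomal protease, was at 229 and 345 CPM untreated against 484, 485 and 435 CPM with PGE2, Adam17, which sheds growth factors from the membrane, at 66.2 and 52.1 CPM untreated against 92.3, 105 and 147 CPM with PGE2, and Mmp2, a gelatinase, had 53 and 3 counts untreated against 83, 38 and 48 counts with PGE2. All 3 separated the groups. Of 32 listed genes 24 passed the filter, 17 with a positive and 7 with a negative log2 fold change, 5 of them higher and 0 lower at an unadjusted p under 0.05 (2.62% and 2.21% of all genes). In 8 of the 24 all PGE2 libraries lay above both untreated libraries, and in 1, Adamts5, below, where 10.3% and 9.74% of all genes did. Mmp14, Reck, Timp3 and Mmp2 had fewer than 10 counts in at least 1 untreated library, so these counts rest in part on genes read mainly with PGE2. With at least 10 counts required in every library 14 genes were left, with a median log2 fold change of 0.30. The sum of the fibroadipogenic markers moved in the same direction, but Col3a1 made up most of that sum, and Pdgfra and Ly6a were at the counts given above. Whether such cells took part in the matrix genes was not tested.

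Among the proteins of the matrix itself, Fn1, Sparc, Thbs2 and Tnc were higher, and the collagens Col5a2 and Col4a2 were lower. Fn1 (ENSMUSG00000026193, chromosome 1 from 71585520 to 71653200), which encodes fibronectin, was at 197 and 108 CPM untreated against 503, 550.3 and 384 CPM with PGE2, a log2 fold change of 1.64 (SE 0.32). Sparc, a secreted protein that binds collagen, was at 926 and 775 CPM untreated against 2158, 2422 and 1392 CPM with PGE2, a log2 fold change of 1.23 (SE 0.27). Tnc, encoding tenascin C, was at 898 and 610.0 CPM untreated against 1397, 1306 and 964 CPM with PGE2, and Thbs2, encoding thrombospondin 2, had 16 and 2 counts untreated against 116, 25 and 54 counts with PGE2. None of these 4 genes overlapped between the groups. Adjusted p-values from edgeR's quasi-likelihood test (Benjamini-Hochberg) were 0.408 for Fn1 and 0.538 for Sparc, and DESeq2 (Benjamini-Hochberg) gave 0.000477 and 0.00487. By contrast, Col5a2 was at 246 and 216 CPM untreated against 142, 141 and 169 CPM with PGE2 and Col4a2, of the basement membrane, at 87.1 and 94.1 CPM untreated against 75.3, 36.99 and 48.7 CPM with PGE2, both lower in all treated libraries. Of 42 listed matrix genes 28 passed the filter, 4 of them higher and 1 lower at an unadjusted p under 0.05 (2.62% and 2.21% of all genes). Thbs2, 1 of the 4, had 2 counts in untreated replicate 2 and passed mainly through the PGE2 libraries. In 5 of the 28 all PGE2 libraries lay above both untreated libraries and in 3 below, where 10.3% and 9.74% of all genes did. The median log2 fold change was 0.13, and 0.07 without untreated replicate 2.

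**Figure D4:**
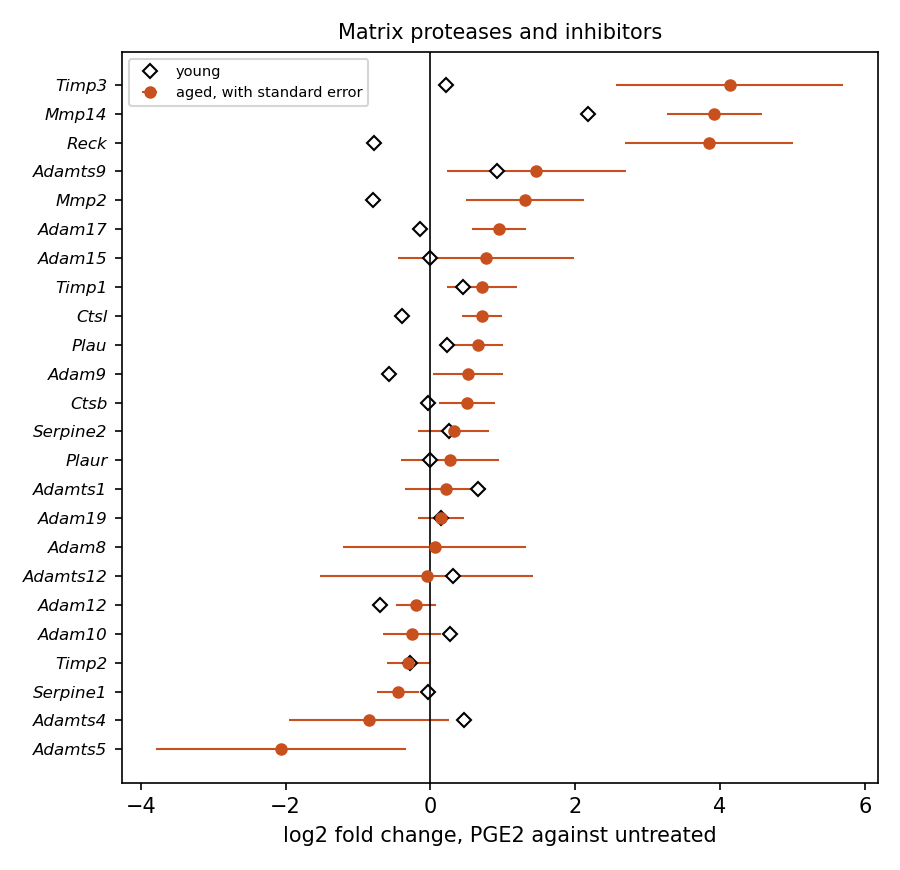
Log2 fold change of PGE2 against untreated aged MuSCs for matrix proteases and their inhibitors past the filter, as filled points with standard errors, with diamonds for young MuSCs where tested. Of the proteases and inhibitors 17 of 24 lie above 0.

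Of genes for adhesion and the cytoskeleton, Dpysl3 stood out. Dpysl3 (ENSMUSG00000024501) encodes a collapsin response mediator protein that binds actin and tubulin, and was at 95.4 and 98.8 CPM untreated against 316, 304 and 203 CPM with PGE2. The untreated libraries were nearly equal and each PGE2 library held more than both, a log2 fold change of 1.5 (SE 0.31) with an adjusted p of 0.505 in edgeR's quasi-likelihood test (Benjamini-Hochberg) and 0.00373 in DESeq2 (Benjamini-Hochberg). Of the 28 genes of the list past the filter, 2 lay above both untreated libraries in each PGE2 library and 1 below (10.3% and 9.74% of all genes). Itga5, the fibronectin receptor subunit, was at 97.9 and 24.9 CPM untreated against 25.1, 44.96 and 39.8 CPM with PGE2, Tagln2 at 459 and 354 CPM untreated against 617, 372 and 567 CPM with PGE2 and Myh9 at 667 and 839.5 CPM untreated against 797, 1018 and 855 CPM with PGE2, all with overlap. Of 33 listed genes for integrins, actin and migration 28 passed the filter, 1 higher and 0 lower at an unadjusted p under 0.05 (2.62% and 2.21% of all genes), with a median log2 fold change of 0.04.

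Genes of secreted growth signals had log2 fold changes of both signs. Vegfa (ENSMUSG00000023951, chromosome 17 from 46016993 to 46032369) encodes the main growth factor of blood vessels and was at 81.5 and 109.7 CPM untreated against 262, 281 and 211 CPM with PGE2. The groups did not overlap, and the log2 fold change was 1.40 (SE 0.31), with an adjusted p of 0.538 in edgeR's quasi-likelihood test (Benjamini-Hochberg) and 0.00978 in DESeq2 (Benjamini-Hochberg). Igfbp5, which binds insulin-like growth factors, was at 81.2 and 50.6 CPM untreated against 228, 134 and 78.4 CPM with PGE2, with overlap. Igfbp3, of the same family, was at 146 and 182 CPM untreated against 90.2, 73.99 and 71.9 CPM with PGE2, lower in every PGE2 library, with a log2 fold change of -1.06 (SE 0.32). Pdgfa, a growth factor for mesenchymal cells, was at 555 and 237 CPM untreated against 269, 294 and 189.6 CPM with PGE2. Of 36 listed genes of growth factors, cytokines and receptors 23 passed the filter, 2 higher and 1 lower at an unadjusted p under 0.05 (2.62% and 2.21% of all genes). Their median was 0.18, and -0.11 without untreated replicate 2.

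The Hedgehog pathway, which signals through the primary cilium to the Gli factors, gave genes on both sides. Gli2 was at 0 in untreated replicate 2 and higher in all PGE2 libraries, at 1.95 and 0 CPM untreated against 21.4, 38.1 and 18.7 CPM with PGE2. Ptch1, the receptor and itself a target of the pathway, lay the other way, at 53.97 and 46.7 CPM untreated against 27.3, 15.4 and 24.8 CPM with PGE2, with no overlap and a log2 fold change of -1.16 (SE 0.50). Evc, a protein at the base of the cilium, had 10 and 2 counts untreated against 32, 14 and 45 counts with PGE2, and Csnk1a1, a kinase that phosphorylates Gli factors among many others, was at 191 and 202 CPM untreated against 296, 252 and 306 CPM with PGE2. Of 23 listed genes 16 passed the filter, 1 higher and 1 lower at an unadjusted p under 0.05 (2.62% and 2.21% of all genes). The 1 higher was Gli2, which passed the filter through the PGE2 libraries, so nothing is concluded from its place in the count. Gli1, the usual readout of the pathway, had 0 and 11 counts untreated against 5, 1 and 0 counts with PGE2. The median of the list was 0.30, and -0.28 with at least 10 counts required in every library. It was also negative with the Y-linked covariate (-0.07) and without PGE2 replicate 1 (-0.07) or PGE2 replicate 2 (-0.04), so the list had no firm direction.

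For cilium assembly 38 of 39 listed genes passed the filter, 0 of them at an unadjusted p under 0.05 in either direction. Bbs5, a subunit of the BBSome that carries cargo out of the cilium, had 2 and 1 counts untreated against 13, 12 and 21 counts with PGE2, Stil, needed to duplicate centrioles, was at 63.99 and 38.1 CPM untreated against 87.1, 75.1 and 75.1 CPM with PGE2, and Tmem67, of the ciliary transition zone, had 10 and 6 counts untreated against 20, 17 and 49 counts with PGE2. Tctn1, also of the transition zone, had 17 and 18 counts untreated against 0, 6 and 0 counts with PGE2. The median was 0.12, and -0.08 without PGE2 replicate 2. Of 30 genes of the Wnt and Notch pathways 18 passed, 1 higher (Lrp6, a Wnt coreceptor, at 124 and 103 CPM untreated against 209, 163 and 194 CPM with PGE2) and 0 lower at an unadjusted p under 0.05 (2.62% and 2.21% of all genes). Jag1, a Notch ligand, was at 12.5 and 7.003 CPM untreated against 30.98, 21.6 and 27.6 CPM with PGE2, higher in each PGE2 library, and Fzd7, a Wnt receptor, at 12.8 and 40.5 CPM untreated against 52.05, 41.5 and 41.8 CPM with PGE2. The median was -0.08, and 0.31 without untreated replicate 2.

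Several genes of the interferon response and of antigen presentation were lower with PGE2. H2-D1 (ENSMUSG00000073411, chromosome 17 from 35262730 to 35267499), which encodes a heavy chain of the class I major histocompatibility complex, was at 140.5 and 179.7 CPM untreated against 60.7, 46.7 and 103 CPM with PGE2. B2m, its light chain, was at 170.0 and 108 CPM untreated against 92.6, 80.8 and 69.8 CPM with PGE2. For both genes each PGE2 library lay below both untreated libraries, with log2 fold changes of -1.18 (SE 0.38) and -0.78 (SE 0.34), and the adjusted p was 0.975 and 0.999 in edgeR's quasi-likelihood test (Benjamini-Hochberg). The value of B2m ran from -1.08 to -0.41 over the alternatives. Reads of H2-D1 can be split with other class I genes of near-identical sequence. H2-K1, another heavy chain, was at 105 and 151 CPM untreated against 83.96, 76.8 and 120.2 CPM with PGE2, with overlap. The sensor Ifih1 had 30 and 8 counts untreated against 3, 3 and 5 counts with PGE2, Ifi27 had 58 and 8 counts untreated against 15, 2 and 6 counts with PGE2, and Irf1, a transcription factor of the response, had 18 and 7 counts untreated against 2, 7 and 2 counts with PGE2. Of 28 listed genes 12 passed the filter, 1 with a positive and 11 with a negative log2 fold change, 0 of them higher and 2 lower at an unadjusted p under 0.05 (2.62% and 2.21% of all genes). In 6 of the 12 the PGE2 libraries all lay below the untreated ones and in 1 above, where 9.74% and 10.3% of all genes did. The median stayed between -1.14 and -0.59 over the alternatives. Ifih1, Ifi27 and Irf1 were near the floor with PGE2, the other 16 listed genes did not pass the filter, and with at least 10 counts required in every library 4 genes were left, with a median of -0.62.

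Inflammation genes were mostly too low to test: 9 of 30 listed NF-kB targets and cytokines passed the filter, 0 in either direction at an unadjusted p under 0.05. Csf1, a macrophage growth factor and the most abundant of them, was at 3737 and 1856 CPM untreated against 2029, 1959.5 and 1834 CPM with PGE2, a log2 fold change of -0.53 (SE 0.27). Only untreated replicate 1 stood high for Csf1, and without untreated replicate 2 its log2 fold change was -0.96 with an adjusted p of 0.0282 in edgeR's quasi-likelihood test (Benjamini-Hochberg), while without replicate 1 it was 0.07 (adjusted p from 0.0282 to 1 over all alternatives). Nfkb1 was at 48.96 and 114 CPM untreated against 148, 134 and 109 CPM with PGE2, Cxcl12 at 142 and 236 CPM untreated against 159, 122 and 111 CPM with PGE2 and Birc3, an inhibitor of apoptosis, at 14.7 and 53.7 CPM untreated against 15.2, 21.1 and 18.3 CPM with PGE2, all with overlap. The median was -0.44, and 0.29 without untreated replicate 2.

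Proliferation genes were abundant and gave no common direction. For S phase and DNA replication all 30 listed genes passed the filter, 1 higher and 1 lower at an unadjusted p under 0.05 (2.62% and 2.21% of all genes), with a median of 0.08. Gins2, a subunit of the replicative helicase, was at 103 and 52.9 CPM untreated against 145, 175 and 138 CPM with PGE2, and Chaf1b, of the chromatin assembly factor that acts at the fork, at 41.2 and 55.2 CPM untreated against 31.3, 13.7 and 19.1 CPM with PGE2. Mcm7, another helicase subunit, was at 206 and 386 CPM untreated against 204, 211 and 156 CPM with PGE2, and Slbp, which binds histone mRNA, at 95.7 and 143 CPM untreated against 70.9, 92.8 and 53.2 CPM with PGE2. For G2 and mitosis all 25 genes passed, 1 higher and 0 lower at the same threshold (2.62% and 2.21% of all genes), and the median was 0.00. In 5 of these 25 genes all PGE2 libraries lay above both untreated libraries and in 0 below, where 10.3% and 9.74% of all genes did. For the S phase list these counts were 3 and 3. Cdk1, the mitotic kinase, was at 42.6 and 61.5 CPM untreated against 64.8, 127 and 103 CPM with PGE2, higher in each PGE2 library, and Cdc20, an activator of the anaphase-promoting complex, at 30.6 and 49.02 CPM untreated against 57.6, 64.9 and 69.8 CPM with PGE2. Mki67, the usual marker of cycling cells, was at 3022 and 1275 CPM untreated against 1298, 1551 and 1454 CPM with PGE2, with untreated replicate 1 far above the other 4. Its log2 fold change was -0.58, but -1.09 without untreated replicate 2 (adjusted p = 0.0186 in edgeR's quasi-likelihood test (Benjamini-Hochberg), and from 0.0186 to 1 over all alternatives) and 0.17 without untreated replicate 1. Bub1b, of the spindle checkpoint, was at 217 and 141 CPM untreated against 101, 142 and 109 CPM with PGE2. Of 20 genes for cell cycle entry and inhibitors 17 passed, 0 in either direction, with a median of -0.08. Cdkn1a, which encodes the inhibitor p21, was at 374 and 218 CPM untreated against 197, 217 and 188 CPM with PGE2, lower in each PGE2 library, and Rbl1, of the retinoblastoma family, at 29.5 and 42.02 CPM untreated against 50.2, 50.1 and 60.5 CPM with PGE2, higher in each. Trp53 was at 441 and 314 CPM untreated against 512, 397 and 473 CPM with PGE2 and Gadd45g at 34.2 and 21.8 CPM untreated against 28.8, 18.2 and 11.8 CPM with PGE2.

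Genes of ribosome production mostly had negative log2 fold changes, but the medians of both lists were above 0 without untreated replicate 2. Ncl, encoding nucleolin of the nucleolus, was at 7684 and 5286 CPM untreated against 4412, 4089 and 4589.9 CPM with PGE2, with no overlap and a log2 fold change of -0.57 (SE 0.21). Its log2 fold change was -0.27 without untreated replicate 1, and its exons overlap small RNA genes. Npm1, a histone chaperone of the nucleolus, was at 5939.6 and 3783 CPM untreated against 3884, 3339 and 2865 CPM with PGE2, Tcof1, needed for ribosomal RNA transcription, at 214 and 149 CPM untreated against 121, 140.0 and 78.4 CPM with PGE2, and Nop16 at 26.4 and 52.9 CPM untreated against 101, 43.8 and 76.7 CPM with PGE2. Of the 30 listed genes of ribosome biogenesis all passed the filter, 7 with a positive and 23 with a negative log2 fold change, 0 higher and 2 lower at an unadjusted p under 0.05 (2.62% and 2.21% of all genes), with a median of -0.16, and 0.01 without untreated replicate 2. Among 50 genes of the cytosolic ribosome, 15 had a positive and 35 a negative log2 fold change, 0 passed an unadjusted p under 0.05 in either direction, and the median was -0.16, or 0.03 without untreated replicate 2. Rplp0 was at 993 and 1376 CPM untreated against 698, 1067 and 614 CPM with PGE2 and Rpl24 at 71.5 and 84.8 CPM untreated against 51.4, 42.7 and 49.9 CPM with PGE2, while Rpl14 and Rpl11 had log2 fold changes of -0.37 and -0.56. Many ribosomal protein genes have near-identical pseudogenes, so reads may be split between them.

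Metabolic lists were mixed. Egln3, an oxygen sensor that marks hypoxia-inducible factor for decay, was at 246 and 94.9 CPM untreated against 77.8, 44.96 and 80.4 CPM with PGE2, lower in each PGE2 library, with a log2 fold change of -1.34 (SE 0.41) that was -0.48 without untreated replicate 1. Gpi1, of glycolysis, was also lower in each at 249.5 and 205 CPM untreated against 195, 123 and 152 CPM with PGE2, while Ldha, which makes lactate, was at 1088 and 1419 CPM untreated against 2308, 1149.6 and 1941 CPM with PGE2, and Ndrg1 had 28 and 11 counts untreated against 88, 18 and 64 counts with PGE2. Of 29 genes of glycolysis and hypoxia 21 passed, 0 higher and 1 lower at an unadjusted p under 0.05 (2.62% and 2.21% of all genes), median 0.15. For oxidative phosphorylation 44 of 44 passed, 0 higher and 1 lower at this threshold (2.62% and 2.21% of all genes). Atp5d, a subunit of ATP synthase, was at 175 and 109 CPM untreated against 69.1, 48.9 and 74.7 CPM with PGE2, with no overlap, a log2 fold change of -1.14 (SE 0.36) and exons that overlap Cbarp on the other strand. Cyc1 and Ndufa4 were higher in each PGE2 library at log2 fold changes of 0.59 and 0.89, and Ndufa9 had -0.70. The median was -0.08, and 0.07 without untreated replicate 2. Cholesterol synthesis gave 2 genes higher and 1 lower at this threshold (2.62% and 2.21% of all genes) among 20 of 23 that passed the filter, with a median of 0.26. Hsd17b7 was at 10.3 and 33.5 CPM untreated against 59.5, 47.2 and 61.3 CPM with PGE2, higher in each PGE2 library, while Sc5d had 76 and 40 counts untreated against 16, 15 and 21 counts with PGE2, lower in each. Insig1, which senses sterols, was at 36.7 and 45.1 CPM untreated against 54.5, 72.3 and 56.4 CPM with PGE2.

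Stress genes lay on both sides, but those of heat shock and oxidative stress mostly had negative log2 fold changes. The median of that list stayed between -0.19 and -0.09 over the alternatives. For heat shock and oxidative stress 26 of 27 genes passed, 7 with a positive and 19 with a negative log2 fold change, 0 higher and 2 lower at an unadjusted p under 0.05 (2.62% and 2.21% of all genes), median -0.17. Catalase (Cat), which removes hydrogen peroxide, was at 314 and 256 CPM untreated against 191, 164 and 149 CPM with PGE2, and Gpx1, a glutathione peroxidase, at 103 and 207 CPM untreated against 89.2, 90.5 and 78.8 CPM with PGE2. Both were lower in each PGE2 library. Hmox1, heme oxygenase, was at 877 and 516 CPM untreated against 535, 490.0 and 354 CPM with PGE2, and Mt1, a metallothionein, at 76.8 and 78.6 CPM untreated against 44.6, 56.9 and 34.1 CPM with PGE2. For the integrated stress and unfolded protein responses 31 of 32 passed, 0 in either direction, median -0.01. The chaperone genes Hspa5, Canx and Pdia3 had log2 fold changes of 0.45, -0.45 and -0.41, and Mthfd2, of mitochondrial folate metabolism and higher in each PGE2 library, 0.64. Of 30 epigenetic regulators 29 passed, 0 in either direction, with a median of -0.13, or 0.35 without untreated replicate 1. Dnmt1, the maintenance DNA methyltransferase, was at 458 and 383 CPM untreated against 327, 372 and 262 CPM with PGE2 and lower in each PGE2 library, Hdac1 at 55.6 and 56.02 CPM untreated against 88.3, 75.7 and 64.1 CPM with PGE2 and higher in each, and Kdm6a and Hdac4 had log2 fold changes of -0.65 and 0.84. Over the alternatives the value of Hdac4 ran from 0.03 to 1.61.

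Some satellite cell genes were higher, and most tested genes of differentiation had negative log2 fold changes. Sdc3 and Sdc4, the syndecans of satellite cells, were at 131 and 86.4 CPM untreated against 189, 169 and 177 CPM with PGE2 for Sdc3 and 514 and 598 CPM untreated against 842, 733 and 778 CPM with PGE2 for Sdc4, and Chrdl2, a marker of quiescent satellite cells, had 20 and 0 counts untreated against 106, 27 and 16 counts with PGE2. All 3 were higher in each PGE2 library. Notch3 lay the other way with 113 and 4 counts untreated against 17, 2 and 6 counts with PGE2, most of them in untreated replicate 1. Of 30 listed genes of identity and quiescence 28 passed the filter, 2 higher and 1 lower at an unadjusted p under 0.05 (2.62% and 2.21% of all genes). The 2 higher were Sdc3 and Chrdl2, and Chrdl2, at 0 counts in untreated replicate 2, passed mainly through the PGE2 libraries. In 4 of the 28 all PGE2 libraries lay above both untreated libraries and in 0 below, where 10.3% and 9.74% of all genes did. The median of the list was 0.21, and 0.09 with at least 10 counts required in every library. For myogenic commitment and differentiation 15 of 33 passed, 4 with a positive and 11 with a negative log2 fold change and 0 at an unadjusted p under 0.05. Ckb, the brain-type creatine kinase, was at 30.3 and 16.3 CPM untreated against 11.2, 8.54 and 6.90 CPM with PGE2, and Cdh2, N-cadherin, at 368 and 307 CPM untreated against 226, 241 and 306 CPM with PGE2, both lower in each PGE2 library, and Neb, a giant protein of the thin filament, was at 287 and 100.4 CPM untreated against 84.3, 76.3 and 186 CPM with PGE2. The median was -0.26, but 0.09 without untreated replicate 1.

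Of the 12 genes that led the higher direction, 3 others were in none of the lists. Atic, which carries out the last steps of purine synthesis, was at 77.6 and 218 CPM untreated against 641, 268 and 436 CPM with PGE2, with a log2 fold change of 1.62 (SE 0.43) that was 1.05 without untreated replicate 1 and 2.52 without untreated replicate 2. Dele1, which relays mitochondrial stress to the cytosol, had 22 and 15 counts untreated against 106, 106 and 111 counts with PGE2, and Sf3a2, a splicing factor subunit whose exons overlap Plekhj1 on the other strand, had 16 and 5 counts untreated against 155, 29 and 117 counts with PGE2. Gli2, in counts, had 7 and 0 counts untreated against 69, 67 and 46 counts with PGE2, a log2 fold change of 4.36 (SE 1.04). That value rests on few untreated reads and ran from 3.69 to 8.83 over the alternatives. For each of these genes the groups did not overlap, and the 12 log2 fold changes ran from 1.23 for Sparc to 4.36 for Gli2, with 9 of the 12 genes called by DESeq2.

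The 12 genes that led the lower direction had little in common by known role. Wwox, an oxidoreductase gene at a fragile site, had 18 and 104 counts untreated against 2, 5 and 7 counts with PGE2, most of them in untreated replicate 2, and was called by DESeq2 with an adjusted p of 0.0323 (Benjamini-Hochberg) while edgeR's quasi-likelihood test gave 0.701. It was the only one of the 12 that DESeq2 called. Nhsl1 was at 48.96 and 89.5 CPM untreated against 10.5, 13.7 and 23.1 CPM with PGE2, Hivep3, a zinc finger factor, at 60.6 and 81.7 CPM untreated against 17.97, 13.7 and 28.4 CPM with PGE2, and BC067074, a gene of unnamed function, at 86.5 and 142 CPM untreated against 23.5, 50.7 and 26.8 CPM with PGE2. Arhgap21, a GTPase-activating protein, was at 452 and 298 CPM untreated against 147, 193 and 205 CPM with PGE2, and Arhgef17, a guanine nucleotide exchange factor, had 93 and 52 counts untreated against 24, 11 and 3 counts with PGE2. Gabarap, a ubiquitin-like protein of autophagosomes, was at 103 and 44.3 CPM untreated against 23.5, 25.6 and 20.3 CPM with PGE2. Slco3a1, an organic anion transporter, had 79 and 114 counts untreated against 12, 28 and 29 counts with PGE2. Ahcy, which clears S-adenosylhomocysteine, was at 215 and 174 CPM untreated against 51.4, 120.1 and 78.8 CPM with PGE2, Incenp, of the chromosomal passenger complex, at 177 and 159.5 CPM untreated against 52.05, 107 and 57.2 CPM with PGE2, and Cbl, a ubiquitin ligase for receptor tyrosine kinases, at 237 and 225 CPM untreated against 112, 139 and 108 CPM with PGE2. With Igfbp3, described above, these make up the 12, and their log2 fold changes ran from -4.35 for Wwox to -0.95 for Cbl. The value of Wwox was -1.26 without untreated replicate 2.

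**Figure D5:**
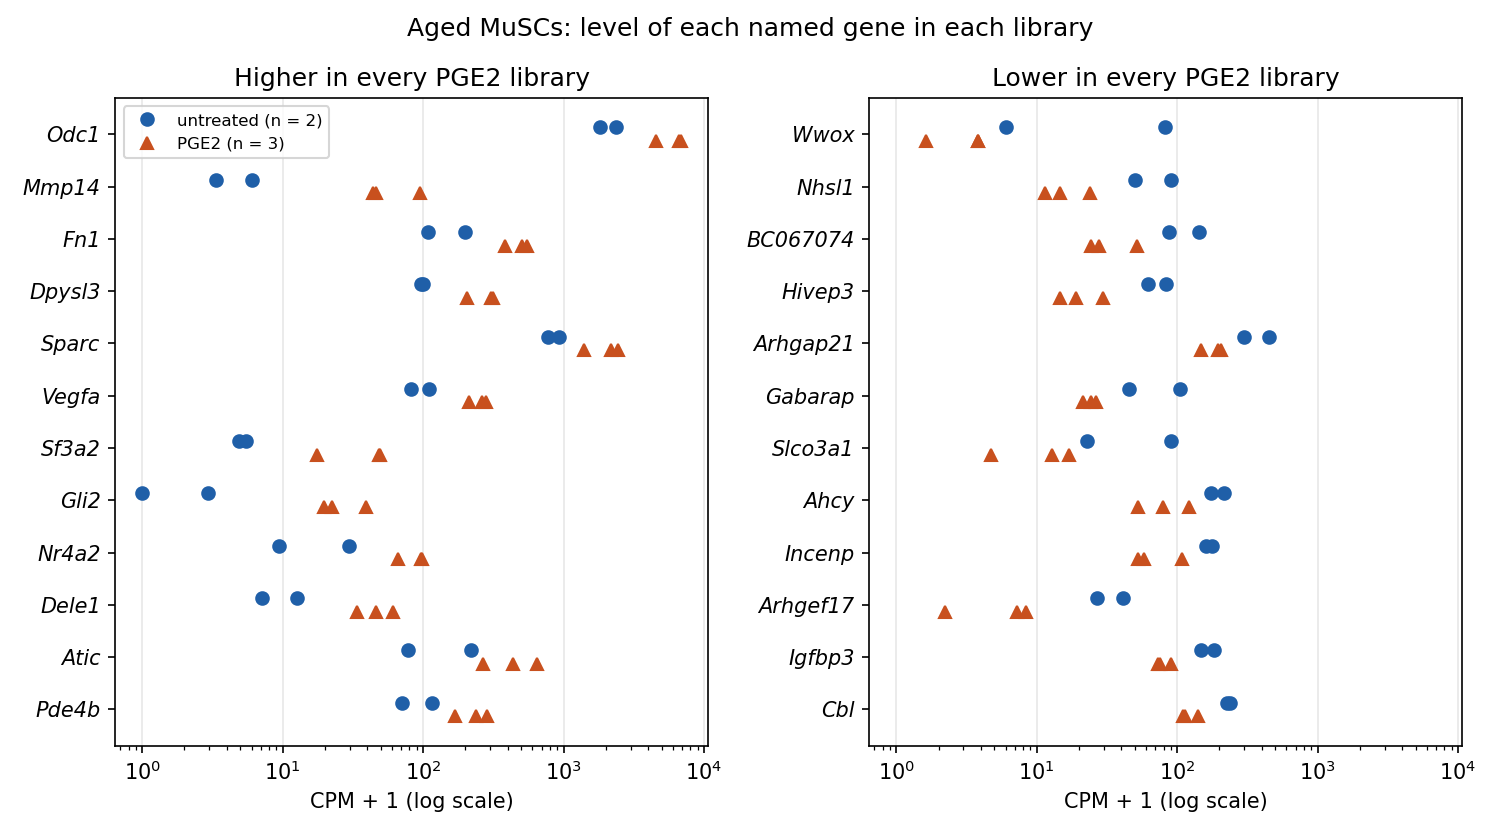
Level of the 12 genes named as higher and the 12 named as lower with PGE2 in each library of aged MuSCs, as CPM + 1 on a log scale, with circles for the 2 untreated and triangles for the 3 PGE2 libraries. The genes were chosen for groups that do not overlap, so the separation is a result of the choice.

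To see whether the pattern was one of aged cells, the same genes were read in young MuSCs, from mice of 2 to 4 months with 3 untreated and 3 PGE2 libraries, none of them shared with the aged comparison. Depth differed with treatment there, with total estimated counts of 7110762, 3356773 and 7198596 untreated against 3641959, 1084967 and 693358 with PGE2. Olfactory receptor reads were at 364, 256 and 55.1 CPM untreated against 340, 1209 and 1220 CPM with PGE2. The part of depth in the young values was not tested, and that of olfactory receptor reads only through a covariate. In young MuSCs, of 10717 genes tested, 1 was higher (0.00933%) and 0 lower (0%) at an adjusted p under 0.05 in edgeR's quasi-likelihood test (Benjamini-Hochberg), and 271 were higher (2.53%) and 174 lower (1.62%) at an unadjusted p under 0.05, while DESeq2 called 17 genes. All 3 PGE2 libraries lay above the 3 untreated ones for 4.53% of genes and below them for 4.87%. Of the 12 genes higher in aged MuSCs, 9 were also higher in young MuSCs, 8 of them at an unadjusted p under 0.05, and 7 did not overlap. Of the 12 lower in aged MuSCs, 8 were lower in young MuSCs but 1, Igfbp3, at an unadjusted p under 0.05, and it alone did not overlap in that direction. Across the 9859 genes tested at both ages, the log2 fold changes were hardly related (Pearson's r 0.01, Spearman's rank correlation 0.02 across genes, which are not independent), and 4942 of the 9859 had the same sign.

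Odc1 was the gene called in young MuSCs, at 1501, 1549 and 1415 CPM untreated against 5153, 4257 and 4458 CPM with PGE2. With the olfactory receptor covariate, or without any one untreated library or PGE2 replicate 2, 0 genes were called there. Nr4a2 was at 17.01, 14.6 and 37.1 CPM untreated against 104, 101 and 44.1 CPM with PGE2, a log2 fold change of 1.86 (SE 0.43), and Pde4b had a log2 fold change of 1.17 (SE 0.28) and Sik1 of 1.37 (SE 0.30). Smox and Ptgs1 had 0.95 (SE 0.37) and 1.13 (SE 0.43). The class I genes pointed the same way at both ages, with H2-D1 at 53.8, 77.4 and 84.8 CPM untreated against 47.7, 33.98 and 35.5 CPM with PGE2 and a log2 fold change of -0.86 (SE 0.32), and B2m at -0.80 (SE 0.26). In young MuSCs the groups did not overlap for any of these 8 genes. Igfbp3 at -0.94 (SE 0.32) and Egln3 at -0.65 (SE 0.27) were lower there as well. Mmp14 at 2.17 (SE 0.50), Vegfa at 1.24 (SE 0.25), Dpysl3 at 1.15 (SE 0.30), Sparc at 0.84 (SE 0.24) and Csf1 at -0.49 (SE 0.22) also kept their direction in young MuSCs with no overlap. Other genes overlapped between the groups or lay the other way in young MuSCs: the young log2 fold changes were -0.78 (SE 0.83) for Reck, -0.18 (SE 0.71) for Thbs2, -0.91 (SE 0.85) for Adcy3, -0.86 (SE 0.50) for Sf3a2, -0.21 (SE 0.26) for Atic, -0.23 (SE 0.62) for Gli2, 0.34 (SE 0.41) for Akap12, -0.64 (SE 0.45) for Oaz2 and 1.08 (SE 0.71) for Wwox. In young MuSCs the median was 0.16 for the immediate early genes, -0.18 for the interferon response, 0.07 for matrix proteases and their inhibitors and 0.31 for the cAMP and CREB targets.

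Whether the response differed with age was tested as an interaction over all 11 libraries. Of 12619 genes 0 passed an adjusted p under 0.05 in edgeR's quasi-likelihood test (Benjamini-Hochberg) in either direction (0%), with 308 (2.44%) higher and 438 (3.47%) lower in the aged response at an unadjusted p under 0.05, and DESeq2 called 0. Of the 12 genes higher in aged MuSCs 4 had an unadjusted p under 0.05 for the interaction, and of the 12 lower 9 did, in genes that had been chosen for a large difference in aged cells. No gene named here was therefore shown to respond differently in aged and young MuSCs.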

How the data were processed

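Per the labels, cDNA was amplified before sequencing and STAR placed the reads on mm10. For the estimates the labels name RSEM, and the paper names the bcbio-nextgen framework with RSEM or Salmon. The annotation release, read filters and strandedness are not given in the sources used here. The deposited estimated counts (expected counts) of 32976 gene identifiers in 11 libraries were not normalized, 4.64% of values were not whole, and all were rounded before testing. Symbols and coordinates came from GENCODE M21 for 31980 identifiers. Of the young PGE2 columns, 2 share a name and were used without a replicate number. A second table of untreated libraries was not used here.

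Tests used edgeR 4.0.16 in R 4.3.3: TMM scaling, filterByExpr (minimum count 10, minimum total 15), the quasi-likelihood test and Benjamini-Hochberg adjustment at 0.05. The standard error is the size of the log2 fold change divided by the square root of F. CPM uses the effective library sizes of the fit of the same age. A fit held only the libraries it compares, and the interaction held all 11. DESeq2 1.42.0 was the other tool, and marker sums, as log2(CPM + 1), were put to an exact permutation test. The code was tested on simulated data. Floors of 3 counts cover counting error only. Libraries of the same group differed by more than sampling noise (chi-square over its degrees of freedom was 16.9 to 22.5).

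Genes named are, in each direction, the 12 protein-coding genes with the smallest p whose groups did not overlap and with at least 10 counts in every library of the higher group (predicted genes and chemosensory receptors left out), up to 4 genes with the smallest p from each list, and the PGE2 receptors, synthases and myogenic factors. Genes named beyond these were chosen after their values were seen. Some listed genes are not reported here. Members and lists were chosen with earlier results of these data known. Promoters came from RefSeq (GRCm38.p6).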

Additional observations from a re-analysis of the deposited data

How the results depend on the processing

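With aged MuSCs, edgeR called 0 genes in each direction with stricter filtering, the other scalings, an adjusted p under 0.1, equal depth and without any one PGE2 library. Higher genes were 17 without a low-count filter, 10 with DESeq2, 3 with a covariate for olfactory receptor reads, 3 with one for Y-linked reads, 2 with all 4 groups in 1 fit and 7 or 10 without untreated replicate 1 or 2. Lower genes were 14 without a filter, 3 with DESeq2 and 6 or 13 without untreated replicate 1 or 2. A replicate block gave 1 gene higher, Dnase1, but no label pairs the replicates and correlations across genes gave no pairing (0.03, 0.04 and -0.07). In young MuSCs the 1 gene called became 100 without a filter, 17 with DESeq2, 0 with the olfactory covariate and 0 to 4 with one library left out. The interaction gave 42 without a filter and 0 to 2 with one library left out. A lone untreated library was assumed to vary like the other group.

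Log2 fold changes that changed sign with one library left out ranged from -1.56 to 0.29 for Birc3, -1.99 to 0.57 for Cbr1, -0.96 to 0.07 for Csf1, -1.44 to 0.55 for Itga5, -1.32 to 0.67 for Kdm6a, -1.09 to 0.17 for Mki67, -0.13 to 0.83 for Myf5, -1.28 to 0.23 for Ndufa9, -1.32 to 0.21 for Neb, -1.16 to 0.09 for Pdgfa, -0.73 to 0.01 for Pdia3, -0.73 to 0.99 for Ptges2, -0.14 to 0.73 for Ptges3 and -0.20 to 2.64 for Slco2a1. Ptges2 was 0.26 with the Y-linked covariate and Ptger1 -0.73 with the replicate block. The other genes taken by the naming rule kept their direction, and genes named beyond it were not run. Of these, 15 passed the threshold in at least 1 alternative: Odc1 and Mmp14 in 7, Fn1 in 5, Nr4a2 and Wwox in 3, Dpysl3, Sparc, Vegfa, Gli2, Sf3a2 and Atic in 2 and Egln3, Ncl, BC067074 and Ptgs1 in 1. The cause was not tested.

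With 2 untreated libraries that differ in depth, a gene at fewer than 10 counts in either gives a fold change set by few reads.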

Other observations

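Some RNAs that code for no protein stood apart between treated and untreated aged MuSCs and are given as values, chosen after the values were seen. Gm42418, a transcript that overlaps ribosomal RNA sequence, was the most abundant of them at 31534 and 17514 CPM untreated against 15885, 8341 and 11465 CPM with PGE2, lower in each PGE2 library. Airn, an antisense RNA of an imprinted locus, had 117 and 61 counts untreated against 11, 10 and 7 counts with PGE2, and 5033426O07Rik had 28 and 43 counts untreated against 0, 0 and 0 counts with PGE2. Gm17322 lay the other way with 6 and 0 counts untreated against 76, 76 and 25 counts with PGE2. DESeq2 called Airn, 5033426O07Rik and Gm17322, and edgeR called none of the 4. Malat1, a nuclear RNA, was at 4449 and 3041 CPM untreated against 4204, 8182 and 3895 CPM with PGE2, with overlap.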
